A study of Mus musculus with 6 samples.

Results

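The dystrophin-glycoprotein complex is a group of proteins that ties the actin cytoskeleton of a muscle cell, across its membrane, to laminin in the surrounding matrix. Dystrophin or its autosomal homolog utrophin holds the actin side, dystroglycan and the sarcoglycans with sarcospan form the membrane part, and the syntrophins and dystrobrevins are adaptors on the cytoplasmic side. Loss of dystrophin causes Duchenne muscular dystrophy, loss of a sarcoglycan causes a limb-girdle dystrophy, and dystrophin is also known to act in satellite cells, the stem cells of skeletal muscle, when they divide. Described here are 9 genes of the complex, Dmd, Utrn, Dag1, Sgca, Sgcb, Sgcd, Sspn, Sntb1 and Dtna, chosen by name from the 55536 genes counted. Earlier results of these data were known when the genes were chosen. All 9 had enough counts to be among the 22404 genes tested.

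RNA-seq had been performed on satellite cells from adult male C57BL/6J mice, 8 to 12 weeks old, to ask how deletion of the gene of the histone H3.3 chaperone HIRA changes expression in the muscle stem cell lineage. The 3 control samples were Pax7CreErt2;Hira fl/+, which the sample labels call WT, so the controls carried the Cre recombinase and 1 floxed Hira allele. The 3 cKO samples were Pax7CreErt2;Hira fl/fl. Mice of both groups received a tamoxifen diet for 2 weeks and regular food for 1 week. Cre was expressed from Pax7, so cells that neither expressed Pax7 nor descend from cells that did keep their Hira alleles. The Tibialis anterior was injured with BaCl2, satellite cells were sorted 5 days later as CD34+ ITGA7+ cells negative for CD45, TER119 and SCA1, and they were cultured for 48 h before total RNA was depleted of ribosomal RNA and sequenced as single-end reads of 75 bp. The samples are described as independent RNA samples and it is not stated whether each came from a separate mouse, so p-values measure the spread between these samples, which may be technical.

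Between 47944477 and 63323577 reads were counted on genes in each sample. The targeted gene, Hira, had 375, 348 and 341 counts in control replicates 1, 2 and 3 and 161, 293 and 272 counts in cKO replicates 1, 2 and 3. The log2 difference, cKO over control, was -0.43 (SE 0.12, adjusted p = 0.0237 by edgeR's quasi-likelihood test, Benjamini-Hochberg over all genes tested). Leaving out control replicate 1 gave -0.34 (adjusted p = 0.104). Of its exonic bases, 44.7% overlap Gm28539 on the same strand, and the counts cover all exons and not the floxed part alone. In cKO satellite cells the study itself reported a strong loss of Hira mRNA by RT-qPCR and, by staining, no detected HIRA protein. The sorted and cultured cells were read out as bulk RNA, and markers of other cell types moved with genotype. The study itself reported a rise of endothelial and other non-muscle genes in Hira-deficient satellite cells. It also reported staining of these cells for VE-cadherin, the product of Cdh5. In bulk RNA, such expression in satellite cells and the presence of other cells cannot be told apart. All 7 macrophage markers (Ptprc, Adgre1, Cd68, Csf1r, Lyz2, Itgam and Cd14, with Lyz2 the highest) rose in cKO, with a summed level of 99.9 to 104 CPM in control and 210 to 244 CPM in cKO, where CPM is the count scaled to the library total and the TMM factor (TMM-scaled CPM). Of 8 fibroblast markers tested, 6 rose (Pdgfra, Col1a1, Col1a2, which was the highest, Col3a1, Dcn and Thy1), with sums of 1119 to 1196 CPM and 1521 to 1676 CPM. All 5 smooth muscle and pericyte markers tested rose (Acta2, the highest, Myh11, Cnn1, Rgs5 and Cspg4), from 3133 to 3189 CPM in sum to 3382 to 3475 CPM. Most of this sum was Acta2, with means of 2954 CPM in control and 3154 CPM in cKO and a rise of 6.75%. Myh11 rose by 96.9%, Cnn1 by 132%, Rgs5 by 55.4% and Cspg4 by 10.7%. Of 7 endothelial markers, 3 rose (Cdh5, the highest, Pecam1 and Kdr), with sums of 10.4 to 11.1 CPM and 12.4 to 16.7 CPM, and 0 of 4 Schwann cell markers tested passed the test in either direction (Mbp was the highest), with sums of 11.1 to 11.7 CPM and 12.4 to 15.5 CPM. Of 6 satellite cell and myoblast markers, 4 fell (Pax7, Myf5, Myod1, which was the highest, and Vcam1), with sums of 1227 to 1259 CPM and 1123 to 1163 CPM. Of 11 muscle differentiation markers, 8 fell (Myog, Mymk, Mymx, Mef2c, Ckm, Myh3, which was the highest, Myh8 and Mylpf), with sums of 23428 to 24164 CPM and 19617 to 22540 CPM. No marker was at 0 in all 6 samples, and the part of these shifts in the results below was not tested.

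The start regions of the genes are shown first, because muscle transcription factors such as MYOD bind the E-box, CANNTG. The 250 bases upstream of annotated starts were taken from RefSeq on GRCm38.p6, which has the same coordinates as mm10. This was done for 7 of the 9 genes and 10 start sites. No window was available for Sntb1, and Dtna was left out, so the window counts below cover neither gene. An E-box on either strand was found in 7 of the 10 windows, beside 66.2% of all 32851 windows of this length. The pair of Dag1 windows share 107 bases and the same E-box, so that 1 site counts for both. The CAGCTG form was in 0 of the 10 windows and in 13% of all windows, and a CArG box, the site of serum response factor, was in 1 of the 10, at the first start of Dmd, and in 1.47% of all windows. The 6 windows below, of Dmd, Utrn, Dag1, Sgca and Sspn, are those with no annotated exon base of their own gene, and capitals mark E-boxes.
Dmd chrX:82948620-82948869 (+ strand): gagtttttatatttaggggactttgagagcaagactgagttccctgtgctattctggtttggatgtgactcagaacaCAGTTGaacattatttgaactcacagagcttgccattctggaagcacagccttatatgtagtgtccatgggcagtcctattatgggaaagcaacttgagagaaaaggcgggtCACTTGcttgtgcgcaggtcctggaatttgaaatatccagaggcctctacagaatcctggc
Dmd chrX:85048045-85048294 (+ strand): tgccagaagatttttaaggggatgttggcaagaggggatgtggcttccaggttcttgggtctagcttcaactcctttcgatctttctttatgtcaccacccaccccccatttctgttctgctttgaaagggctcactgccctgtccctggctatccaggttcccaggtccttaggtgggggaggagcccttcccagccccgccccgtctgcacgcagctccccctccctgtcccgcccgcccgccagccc
Utrn chr10:12861736-12861985 (- strand): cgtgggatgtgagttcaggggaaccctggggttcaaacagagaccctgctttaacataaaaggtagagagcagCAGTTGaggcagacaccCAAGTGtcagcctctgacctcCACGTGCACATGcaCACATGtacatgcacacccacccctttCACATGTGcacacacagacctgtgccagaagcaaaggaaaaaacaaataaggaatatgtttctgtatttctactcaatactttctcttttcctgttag
Dag1 chr9:108263959-108264208 (- strand): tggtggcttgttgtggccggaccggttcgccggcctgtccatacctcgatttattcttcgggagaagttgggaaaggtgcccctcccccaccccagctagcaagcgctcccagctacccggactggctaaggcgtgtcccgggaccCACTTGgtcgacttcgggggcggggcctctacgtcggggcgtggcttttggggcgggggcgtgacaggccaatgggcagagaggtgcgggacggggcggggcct
Sgca chr11:94976328-94976577 (- strand): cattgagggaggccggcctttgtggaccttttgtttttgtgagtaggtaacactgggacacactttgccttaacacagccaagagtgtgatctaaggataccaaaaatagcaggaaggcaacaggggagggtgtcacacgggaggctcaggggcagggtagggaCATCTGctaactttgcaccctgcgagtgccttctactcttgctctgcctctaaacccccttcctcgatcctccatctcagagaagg
Sspn chr6:145933872-145934121 (+ strand): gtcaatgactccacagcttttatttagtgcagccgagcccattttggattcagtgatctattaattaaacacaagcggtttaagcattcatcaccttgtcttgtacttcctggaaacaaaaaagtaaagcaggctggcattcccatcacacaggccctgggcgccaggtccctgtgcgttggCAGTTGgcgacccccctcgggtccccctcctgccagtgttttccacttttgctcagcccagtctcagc
The first Dmd window lies directly upstream of the gene and holds 2 E-boxes, and the second, at an internal start, holds 0. The Dag1 and Sgca windows lie directly upstream of their genes and hold 1 each. The second Dmd window, the Utrn window, with 7 E-boxes of which the last pair overlap, and the Sspn window, with 1, are intronic in longer annotated transcripts of the same gene. Of the windows not printed, that of Sgcd holds 2 E-boxes and the other Dag1 window 1. Those of Sgcb and of the other Sspn start hold 0. These matches describe the sequence and were not tested for binding or for a link to the changes in cKO.

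The genes of the complex were expressed over a wide range. Compared per length, as CPM per kilobase of annotated exon, the highest control level was that of Sntb1, β1-syntrophin, at 82.6 ± 3.07 (SD, n = 3), and the lowest that of Sgcd, δ-sarcoglycan, at 0.481 ± 0.0250, a ratio of 172. With the longest transcript as the length, these control levels were 89.4 and 0.891, a ratio of 100.4. Dag1, the gene of both dystroglycan subunits, came second at 51.4 ± 1.74 CPM per kilobase. Close below it in control were Sgcb, β-sarcoglycan, at 43.1 ± 0.906, and Sgca, α-sarcoglycan, at 39.7 ± 0.846. Sspn, sarcospan, followed at 25.4 ± 0.546 and Utrn at 21.6 ± 0.783 CPM per kilobase. Lower still were Dmd at 6.54 ± 0.198 and Dtna, α-dystrobrevin, at 5.08 ± 0.0934. Among the 9 genes, Sgcb and Sgca were thus in the upper part of the order, while Sgcd was the lowest in both groups.

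**Figure D1:**
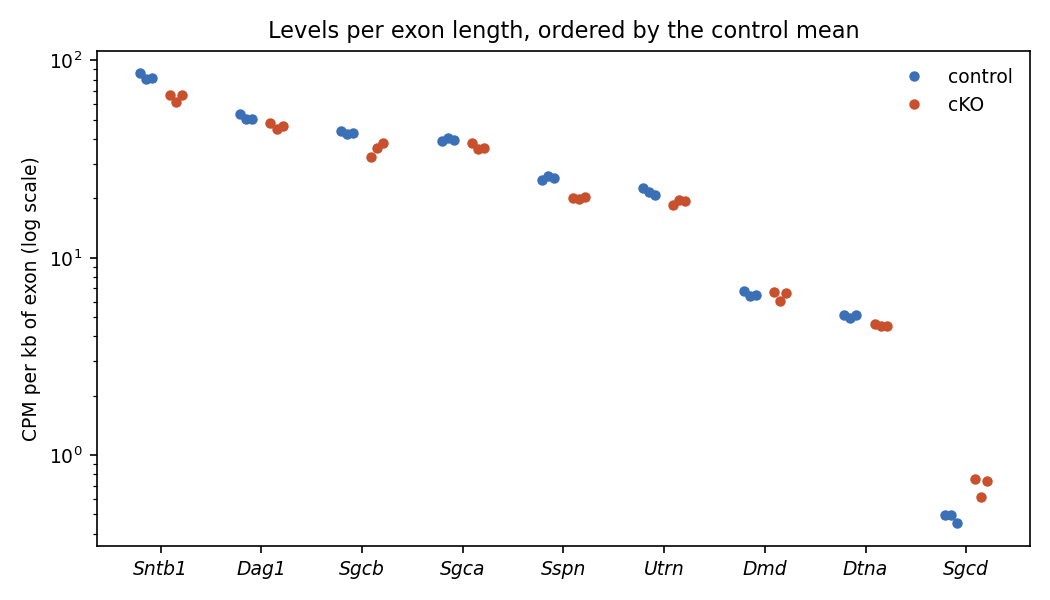
Level of each gene per length in the 3 control (blue) and 3 cKO (red) samples, in CPM per kilobase of annotated exon on a log axis, ordered by the control mean. Neighbours in the order do not share values in control, and in cKO the Sgcb and Sgca samples overlap.

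In control, no pair of neighbours in this order had overlapping samples. In cKO the order was the same except for the sarcoglycan pair, where Sgca at 36.6 ± 1.53 CPM per kilobase and Sgcb at 35.6 ± 2.83 CPM per kilobase overlapped, so that their order cannot be given. Part of the order depends on the length used. With the longest transcript in place of all annotated exons, Dtna stood above Dmd, at 13.7 against 10.4 CPM per kilobase in control, and Utrn stood above Sspn, at 29.9 against 28.1. The aligner used does not split reads over introns, so the share of read positions that stay within an exon was also computed. Of all 75-base read positions along the exons, 55.9% lay within 1 exon for Sgca and 94.2% for Dag1. Counted per kilobase of such positions, a measure chosen after seeing the data, Sgca had a control level of 71.1 and came second behind Sntb1, Dag1 had 54.5, Sgcb 48.4, Utrn 32.7 and Sspn 27.9. Sntb1 was first and Sgcd last with each of the 3 lengths tried.

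Of the 9 genes, 7 fell in cKO, 1 rose and 1 did not pass the test. Dag1, Utrn, Sgca, Sgcb, Sspn, Sntb1 and Dtna were the 7 that fell, Sgcd rose by 45.2%, and Dmd was not called. The smallest called fall was that of Sgca, which fell by 7.94%, and the largest that of Sntb1, which fell by 21.1%. Among all 22404 genes tested, 6.46% were called lower and 9.38% higher at an adjusted p under 0.05. Higher calls made up 59.2% of all calls, and 70.0% when libraries were scaled by their total counts only, where 6 of the 9 genes fell. The median log2 fold change of the 9 genes was -0.17, beside -0.001 for all genes tested. The cKO samples lay below all control samples for 7 of the 9 genes, which is the case for 15% of all genes tested, and above them for 1, which is the case for 16.8%. The 9 genes summed to 1727 to 1804 CPM in control and 1480 to 1544 CPM in cKO. In bulk RNA, fewer cells of a type and less RNA per cell cannot be told apart, and this holds for each change given here.

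**Figure D2:**
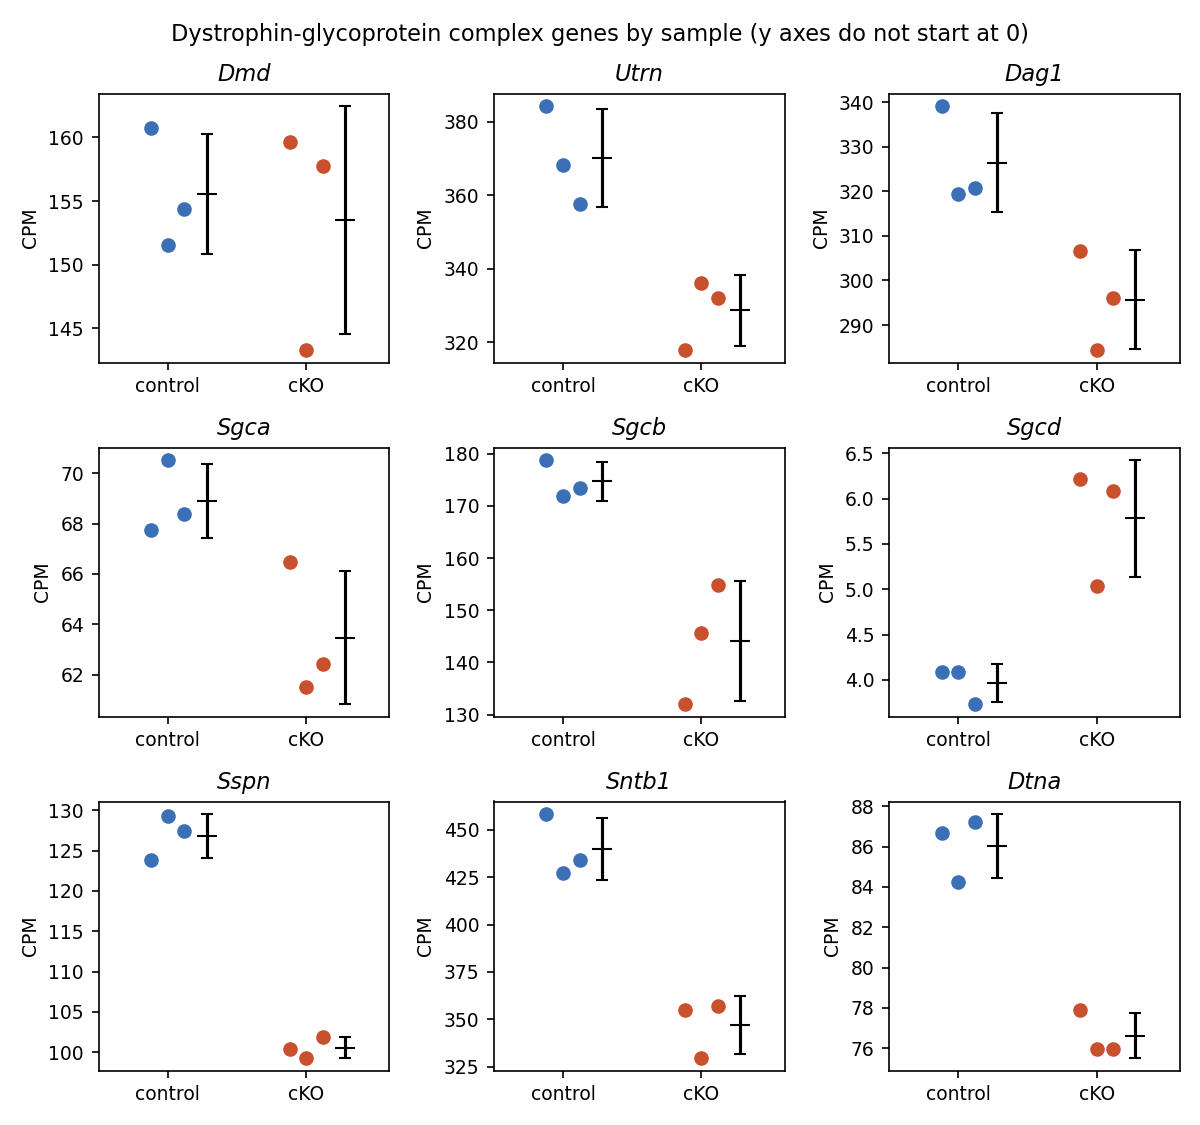
CPM of each gene in every sample, with control in blue and cKO in red, replicates 1 to 3 from left to right, and the mean with its SD (n = 3) as black bars; the y axes do not start at 0. The groups overlap for Dmd, the cKO samples are all higher for Sgcd, and they are all lower for the other 7 genes.

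The actin-binding homologs were examined first. Dmd (ENSMUSG00000045103, chromosome X, 82948870 to 85206141, plus strand of mm10) encodes dystrophin. It had 161, 152 and 154 CPM in control replicates 1, 2 and 3 and 160, 143 and 158 CPM in cKO replicates 1, 2 and 3. The groups overlapped, and the spread among cKO samples was larger than the difference between the means of 156 ± 4.71 and 154 ± 8.96 CPM. The fitted log2 change was -0.02 (SE 0.04, 95% interval -0.11 to 0.07, adjusted p = 0.825, edgeR's quasi-likelihood test). Each called fall, the smallest being that of Sgca at -0.12, lay outside this interval. The 95% intervals of Sgcb, Sspn and Sntb1 did not overlap that of Dmd, whereas those of Utrn, Dag1, Sgca and Dtna did. Dmd has 14 annotated transcripts from several start sites, and the counts per gene do not separate full-length dystrophin from the shorter products.

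Utrn (ENSMUSG00000019820, chromosome 10, 12382188 to 12869365, minus strand) encodes utrophin, which takes the place of dystrophin in immature muscle, at the neuromuscular junction and in many other cell types. Its levels were 384, 368 and 358 CPM in control and 318, 336 and 332 CPM in cKO. No cKO sample reached the lowest control, and Utrn fell by 11.2%, or -0.17 on the log2 scale (SE 0.03, adjusted p = 0.00277, edgeR's quasi-likelihood test). Per length, Utrn exceeded Dmd in each sample. The ratio of Utrn to Dmd was 3.33, 3.38 and 3.22 in control and 2.77, 3.26 and 2.93 in cKO, with means of 3.31 ± 0.0792 and 2.99 ± 0.253 (SD, n = 3). The ratios overlapped between the groups, and the log2 difference of -0.15 had an exact two-sided permutation p of 0.2, where 3 samples against 3 cannot go below 0.1. Whether Utrn fell more than Dmd is thus not settled by a test that cannot reach 0.05.

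Genes with the pattern over the 6 samples most like that of each homolog were taken from 15221 genes with a mean count of at least 100, by the root-mean-square difference of centred log2 CPM. For Dmd these were Zfp120 at 0.0128, Grip2 at 0.0160 and Gm4246 at 0.0161. For Utrn they were Dst at 0.00669, Gm6175 at 0.0110 and Klhl21 at 0.0134. Dst, which encodes the cytoskeletal linker dystonin, changed by -0.17 on the log2 scale (adjusted p = 0.00198, edgeR's quasi-likelihood test). Gm6175 changed by -0.18 (adjusted p = 0.17, same test) and Klhl21 by -0.16 (adjusted p = 0.00377, same test). The Dst level of 1217 CPM in control replicate 1 and 1014 CPM in cKO replicate 1 marked the extremes, as in Utrn. These genes were picked for their likeness to Utrn, so their similar changes and extremes follow from that choice. Of the other 8 genes of the complex, the closest to Dmd was Dag1 at rank 3901 and the closest to Utrn was Dtna at rank 652.

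Dag1 (ENSMUSG00000039952, chromosome 9, 108204634 to 108263958, minus strand) encodes dystroglycan, whose outer subunit binds laminin through its sugar chains and whose membrane subunit binds dystrophin or utrophin. It had 339, 319 and 321 CPM in control and 307, 284 and 296 CPM in cKO. The groups did not overlap, and Dag1 fell by 9.44%, or -0.14 on the log2 scale (SE 0.04, adjusted p = 0.0114, edgeR's quasi-likelihood test). This call was lost without control replicate 1, the highest sample, where the log2 fold change was -0.12 and the adjusted p 0.0685.

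The sarcoglycans, which form a membrane subcomplex with sarcospan, moved in both directions. Sgca (ENSMUSG00000001508, chromosome 11, 94962791 to 94976327, minus strand), whose product is found in striated muscle, had 67.7, 70.5 and 68.4 CPM in control and 66.5, 61.5 and 62.4 CPM in cKO. Its groups were separated by only the gap between control replicate 1 and cKO replicate 1, and its change of -0.12 on the log2 scale (SE 0.04, adjusted p = 0.042, edgeR's quasi-likelihood test) was the weakest of the calls. With any control replicate left out, or cKO replicate 2 or 3, its adjusted p was between 0.0685 and 0.186.

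Sgcb (ENSMUSG00000029156, chromosome 5, 73632749 to 73647790, minus strand), a sarcoglycan that is made in muscle and in other tissues, had 179, 172 and 173 CPM in control and 132, 146 and 155 CPM in cKO. All cKO samples were lower and more widely spread than the controls, at 144 ± 11.5 against 175 ± 3.67 CPM. Sgcb fell by 17.5%, or -0.28 on the log2 scale (SE 0.05, adjusted p = 0.000562, edgeR's quasi-likelihood test).

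Sspn (ENSMUSG00000030255, chromosome 6, 145931641 to 145965223, plus strand) encodes sarcospan, a protein with several membrane passes that associates with the sarcoglycans. Its levels of 124, 129 and 127 CPM in control and 100, 99.3 and 102 CPM in cKO did not overlap and were close within each group, at 127 ± 2.73 and 101 ± 1.31 CPM. It fell by 20.8%, or -0.34 on the log2 scale (SE 0.03, adjusted p = 2.14e-06, edgeR's quasi-likelihood test), the lowest adjusted p of the 9 genes. An antisense gene, Sspnos, covers 1.38% of its exonic bases, and the strand setting of the counting is not given in the sources used here.

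Sgcd (ENSMUSG00000020354, chromosome 11, 46896253 to 47988969, minus strand) was the only one of the 9 genes to rise. Its product, δ-sarcoglycan, pairs tightly with β-sarcoglycan and is part of both the striated muscle and the smooth muscle complex. It was counted with 229, 257 and 227 reads in control and 300, 303 and 341 reads in cKO, or 4.08, 4.09 and 3.73 CPM and 6.22, 5.04 and 6.09 CPM. Every cKO sample was above every control sample although cKO libraries were on the whole smaller, and the log2 change was 0.54 (SE 0.09, 95% interval 0.34 to 0.74, adjusted p = 0.000892, edgeR's quasi-likelihood test). The control mean of 3.97 ± 0.206 CPM and the cKO mean of 5.78 ± 0.646 CPM were each the lowest of the 9 genes, and its mean differed by 1.81 CPM where that of its partner Sgcb fell by 30.6 CPM. The markers of fibroblasts, macrophages and smooth muscle given above rose as well, and their part in the rise of Sgcd was not tested. Within the cKO group, replicate 2 had the lowest Sgcd level and the highest summed levels of the fibroblast, macrophage and smooth muscle markers. This order rests on that library alone and was not tested. Most of the smooth muscle sum was Acta2, at 3166, 3177 and 3118 CPM in cKO replicates 1, 2 and 3.

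The adaptors both fell. Sntb1 (ENSMUSG00000060429, chromosome 15, 55636388 to 55906949, minus strand) encodes β1-syntrophin, a PDZ-domain protein that brings signalling proteins to the complex. It had 458, 427 and 434 CPM in control and 355, 329 and 357 CPM in cKO, the largest loss of CPM of the 9 genes. The groups were far apart relative to their spread, with means of 440 ± 16.4 and 347 ± 15.4 CPM and a log2 change of -0.34 (SE 0.04, adjusted p = 1.2e-05, edgeR's quasi-likelihood test). Dtna (ENSMUSG00000024302, chromosome 18, 23415135 to 23659715, plus strand) encodes α-dystrobrevin, which binds both dystrophin and the syntrophins. Its levels were 86.7, 84.2 and 87.2 CPM in control and 77.9, 76.0 and 76.0 CPM in cKO, without overlap. It fell by 11%, or -0.17 on the log2 scale (SE 0.03, adjusted p = 0.00188, edgeR's quasi-likelihood test), and 0.532% of its exonic bases are covered by an antisense gene.

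The 9 genes had log2 fold changes from -0.34 to 0.54. All 6 satellite cell and myoblast markers ranged from -0.37 for Myf5 to 0.06 for Sdc4, with Cdh15 at 0.04, and all 11 differentiation markers from -0.31 for Mef2c to -0.07 for Acta1. Among cKO samples, replicate 2 had the lowest summed muscle differentiation markers, 19617 CPM, but the highest summed satellite cell and myoblast markers, 1163 CPM. It also had the lowest level of Dmd, Dag1, Sgca, Sspn and Sntb1, whereas Utrn and Sgcb were lowest in cKO replicate 1. Dtna was at 76.0 CPM in both cKO replicate 2 and cKO replicate 3. Without cKO replicate 2, 6 of the 7 calls were made, with Sgca missing. How far the fall of the muscle markers accounts for that of the complex genes was not tested.

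**Figure D3:**
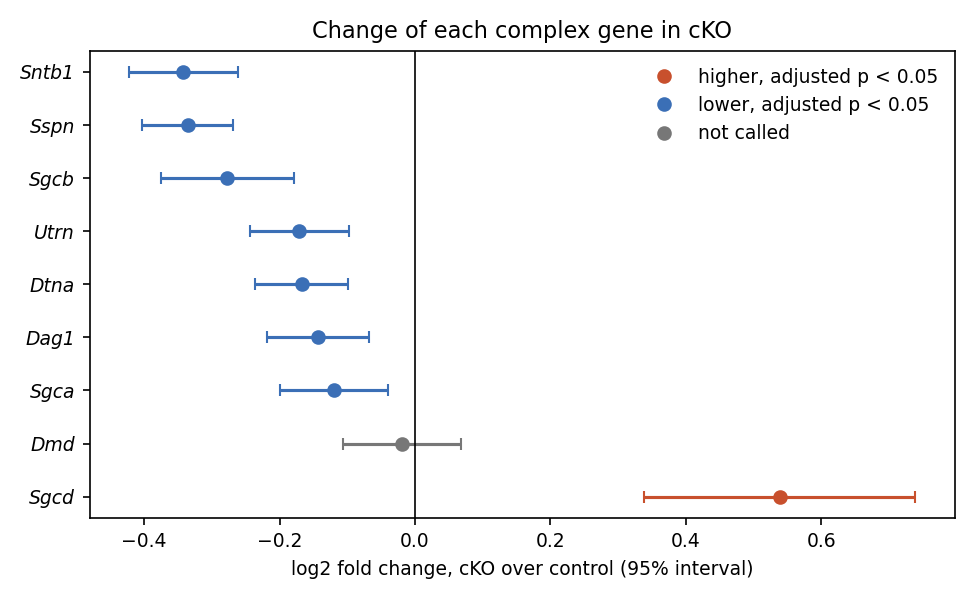
Log2 fold change of each gene, cKO over control, with its 95% interval from edgeR's quasi-likelihood fit (3 control and 3 cKO samples). Blue points are genes that fell, from -0.34 for Sntb1 and Sspn to -0.12 for Sgca, the grey point is Dmd at -0.02, and the red point is Sgcd at 0.54.

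Other genes of the pathway moved in both directions. Of 59 such genes in 5 lists, 55 were tested, of which 9 fell, 12 rose and 34 did not pass the test, with a median log2 fold change of 0.03, beside 6.46% lower and 9.38% higher among all genes tested. Leaving out control replicate 1 gave 3 lower and 7 higher, and leaving out control replicate 2, control replicate 3 or cKO replicate 3 gave 4, 5 and 5 lower. Of the 11 other subunits of the complex, 9 were tested, 4 fell and 1 rose. Drp2, a dystrophin-related protein, fell from 125 ± 1.97 to 108 ± 4.68 CPM (log2 fold change -0.21, adjusted p = 0.000632, edgeR's quasi-likelihood test). Cav3, the muscle caveolin, fell from 150 ± 6.52 to 130 ± 14.4 CPM with overlapping samples (-0.21, adjusted p = 0.0246). Sntg1, γ1-syntrophin, rose on counts of only 8, 9 and 4 in control and 9, 17 and 20 in cKO (1.24, adjusted p = 0.0463). Sgce, ε-sarcoglycan, which replaces α-sarcoglycan outside striated muscle and was named after its values were seen, had 15.5 ± 0.0587 and 16.6 ± 0.956 CPM and did not pass the test (0.10, adjusted p = 0.236).

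Dystroglycan binds laminin and other matrix proteins through sugar chains. None of the 18 genes that build the sugar chains of dystroglycan fell, 2 rose and 16 did not pass the test, which is near the share among all genes tested, with a median log2 fold change of 0.03. Large2 and B4gat1, named after their values were seen, had only 16 to 35 and 13 to 36 counts a sample. Of the exonic bases of B4gat1, 85.3% overlap AC124502.3 on the same strand. Rxylt1, a xylosyltransferase, rose from 33.5 ± 1.44 to 37.7 ± 0.248 CPM (0.17, adjusted p = 0.00971, edgeR's quasi-likelihood test). Of 10 matrix ligands, 5 rose and 0 fell, with a median of 0.11. Lama4, the laminin α4 chain of vessel walls, rose from 16.3 ± 0.582 to 34.1 ± 2.39 CPM (1.07, adjusted p = 3.43e-09), Lamb1 from 142 ± 4.15 to 193 ± 10.3 CPM (0.44, adjusted p = 1.13e-06), Lama5 from 30.3 ± 1.05 to 37.4 ± 2.53 CPM (0.30, adjusted p = 0.000519) and Bgn, biglycan, from 351 ± 2.26 to 406 ± 48.0 CPM (0.21, adjusted p = 0.0201). Lama2, the laminin chain of muscle fibres, named after its values were seen, had 158 ± 3.47 and 158 ± 6.28 CPM (adjusted p = 0.956). Fibroblast, macrophage and smooth muscle markers rose in the same samples, and their part in the rise of the matrix genes was not tested.

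On the cytoplasmic side, 9 of 11 partners were tested, of which 3 fell and 2 rose. Krt19, a keratin that binds dystrophin, rose from 2.92 ± 0.129 to 6.71 ± 0.262 CPM (1.20, adjusted p = 7.4e-08, edgeR's quasi-likelihood test) and Synm, synemin, from 3.02 ± 0.137 to 4.27 ± 0.185 CPM (0.50, adjusted p = 0.00102), while Sync, syncoilin, a partner of α-dystrobrevin, fell from 93.2 ± 0.883 to 78.7 ± 5.23 CPM (-0.24, adjusted p = 0.000763) and the adaptor Grb2 from 65.6 ± 3.09 to 56.9 ± 4.18 CPM (-0.20, adjusted p = 0.0102). The integrin α7β1 complex is the other link of muscle to laminin, and of its 9 genes 2 fell and 2 rose, with a median of 0.04. Itga7, also an antigen of the sort, fell from 620 ± 11.2 to 570 ± 25.8 CPM (-0.12, adjusted p = 0.0271) and Lims1 fell by 0.09 on the log2 scale (adjusted p = 0.0454). Fermt2, kindlin-2, rose from 174 ± 1.36 to 201 ± 2.14 CPM (0.21, adjusted p = 0.000113) and Parva by 0.11 on the log2 scale (adjusted p = 0.0324).

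**Figure D4:**
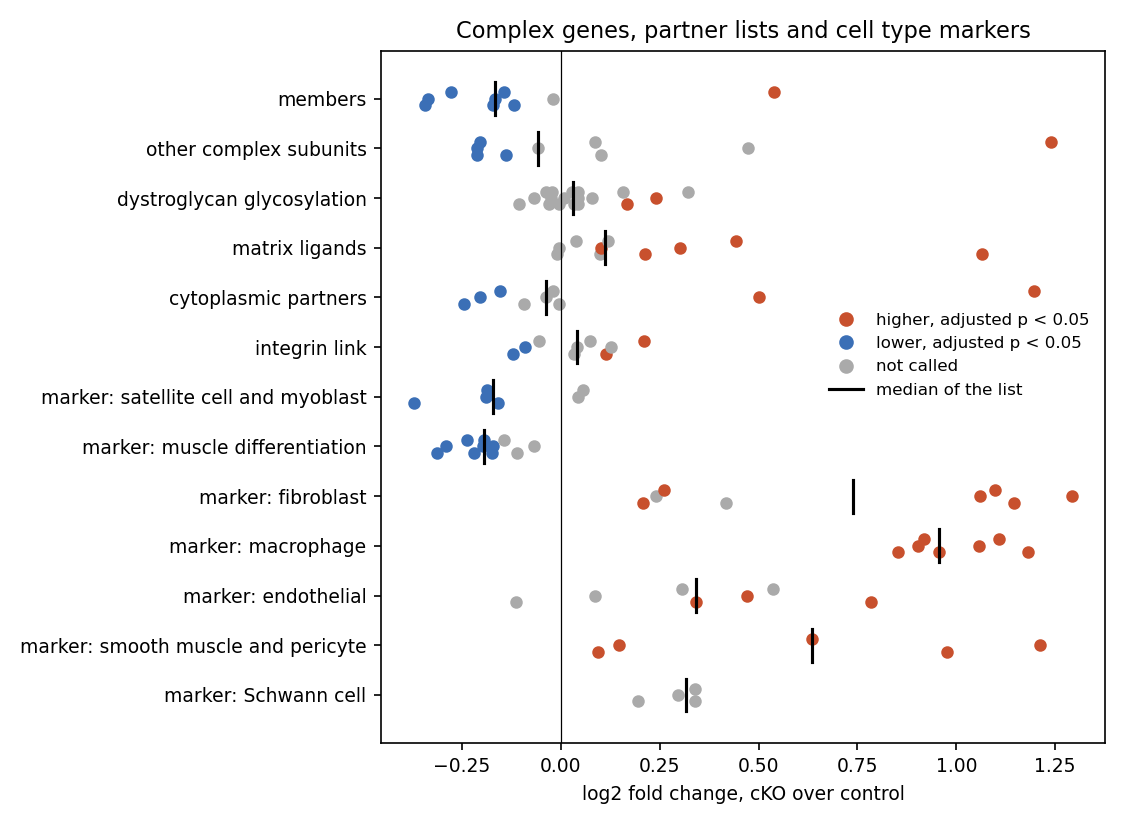
Log2 fold change, cKO over control, of each tested gene of the complex, of the 5 partner lists and of the 7 cell type marker lists, with a black bar at the median of each list. Red points rose, blue points fell and grey points did not pass the test (edgeR, adjusted p under 0.05), and the medians range from -0.19 for muscle differentiation to 0.96 for macrophage markers.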

How the data were processed

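RNA was measured in 3 control and 3 cKO samples of cultured satellite cells. The authors aligned single-end reads to mm10 with Bowtie2 2.3.4.2 and deposited raw counts per gene from featureCounts 1.6.3, versions as in the submitters' processing notes. Reads over exon junctions are mostly lost with this aligner, and neither the strand setting nor the handling of multi-mapping reads is given in the sources used here. The authors' comparison table from DESeq2 2.11.40.6, with fold changes and p-values, and their table of normalized values were not used.

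GENCODE M21, which shares the build of mm10, held each of the 55536 identifiers. Genes were kept by filterByExpr, scaled by TMM and compared with edgeR 4.0.16 under R 4.3.3 (quasi-likelihood test on genotype alone), with Benjamini-Hochberg adjustment over 22404 genes and a threshold of 0.05. The biological coefficient of variation was 3.92%. Each count-based value is CPM on TMM-scaled totals. Log2 CPM for the likeness of patterns used a prior count of 2. Levels per length used the union of annotated exons, with the longest transcript as an alternative. No replicates held the same library.

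Named are all 9 genes with every sample, up to 4 called genes of each partner list with the largest change, the highest and the called genes of each marker list, and 3 genes most like Dmd and Utrn. Some genes of the partner lists enter the counts and medians but are not reported here by name. The genes, lists and tests were chosen with earlier results of these data known, and the partner and marker lists come from textbook knowledge. Alternatives were DESeq2 1.42.0, other scalings and filters, a replicate block, and leaving out each sample. Same-numbered control and cKO samples did not deviate together. Promoter windows were RefSeq sequence of GRCm38.p6. Python 3.11.15 with pandas 2.3.3, scipy 1.17.1 and matplotlib 3.10.9 made summaries and plots.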

Additional observations from a re-analysis of the deposited data

How the results depend on the processing

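Precision was limited by 3 samples a group and, for Sgcd, by 227 to 341 reads in a sample. Under 12 alternatives (DESeq2, 2 scalings, 2 filters, a replicate block and 6 fits without 1 sample), Utrn, Sgcb, Sspn, Sntb1 and Dtna fell and Sgcd rose in each, and Dmd was called in none, with log2 fold changes of -0.05 to 0.02 without 1 sample. No result changed direction in a call. Leaving out 1 sample gave 5 to 7 of the 9 genes lower and 1 to 1 higher, 3 to 9 pathway genes lower and 7 to 14 higher, and 917 to 1671 of all genes lower and 1571 to 2214 higher. The lowest counts of all genes called lower were 917 without control replicate 1, 934 without control replicate 2 and 960 without control replicate 3, beside 1448 with all samples. Pathway genes called lower were 3, 4 and 5 without control replicates 1, 2 and 3 and 5 without cKO replicate 3, beside 9, and those called higher were 7 without control replicate 1, beside 12. Fewer samples were fitted in these cases. Hira ranged from -0.52 to -0.29 and was not called without control replicate 1 (-0.34), and the log2 difference of the Utrn to Dmd ratio ranged from -0.22 to -0.10. Sgca was also not called with total counts only (adjusted p = 0.102, edgeR's quasi-likelihood test) and with the replicate block (adjusted p = 0.072).

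Whether same-numbered samples were handled together is not stated in the sources used here. Over all genes tested, deviations of same-numbered samples correlated at -0.0145 to -0.00449, which cannot exclude shared handling. With the replicate as a block, 6 of the 9 genes were lower and 1 was higher, pathway genes numbered 8 lower and 11 higher, 1251 of all genes were lower and 1901 higher, Hira had -0.44, and the Utrn to Dmd ratio differed by -0.15. By levels per length, 5 of the 9 genes kept their rank in control with the longest transcript and 4 with read positions within 1 exon, an alternative chosen after seeing the data.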
